A study of Mus musculus with 4 samples.

Results

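Solute carriers are membrane proteins that move sugars, amino acids, ions, vitamins, metals and many other small molecules across the plasma membrane and the membranes of organelles. Of 368 mouse genes with a name of this superfamily (Slc, a family number and a member) and a probe on the array, 237 were kept and are described here. Members were chosen by measured signal: a gene was kept when, for one of its probes, over 50% of the spots passed the scanner's flag for signal well above background in either group, on each of that group's 2 arrays. The definition leaves out 3 genes of iron recycling and the red cell membrane, Slc40a1, Slc11a1 and Slc4a1. Of the 237 genes, 202 were well above background on all 4 arrays, 23 passed only through ACKR4-negative cells and 12 only through ACKR4-positive cells.

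The cells came from spleens of Ackr4GFP/wt mice, which carry green fluorescent protein at 1 Ackr4 allele and a wild-type allele at the other, so both groups share this genotype. ACKR4 is an atypical chemokine receptor that takes up chemokines without classical signalling. Spleens were digested with enzymes, depleted of CD45-bearing leukocytes and sorted for living cells with the endothelial surface protein CD31 and without CD45, either with (ACKR4-positive) or without (ACKR4-negative) the reporter. Each of 2 independent sorts pooled 2 to 3 mice and gave 1 array per group, so n = 2 arrays per group throughout. The ages of the mice are not given in the sources used here. The ACKR4-negative group is every other living, CD45-negative and CD31-positive cell sorted, not 1 vessel type.

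Endothelial cells use solute carriers for their own metabolism and to pass nutrients between blood and tissue. Glucose enters through facilitative carriers of the Slc2 family and is largely turned into lactate, which leaves or enters through proton-linked carriers of the Slc16 family. Amino acid carriers work in layers: sodium-driven carriers load glutamine and other neutral amino acids, exchangers trade these for essential ones, and uniporters let amino acids leave. A kidney or gut epithelial cell uses such exchangers and uniporters on its blood-facing side.

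Promoters are shown for Slc16a3 and Slc16a12, which carried the largest fall and the largest rise among tested members, and for the glucose carrier gene Slc2a1. They are the 250 bases before the annotated start, read 5′ to 3′ along the gene, from RefSeq's GRCm38.p6 annotation. Slc16a3 lies at chr11:120948817-120949066 on the plus strand, Slc16a12 at chr19:34747329-34747578 on the minus strand and Slc2a1 at chr4:119108495-119108744 on the plus strand. Capitals mark ACGTG on either strand, letters that bHLH factors such as the hypoxia-inducible factors can bind. The variant GCGTG is not marked.
Slc16a3: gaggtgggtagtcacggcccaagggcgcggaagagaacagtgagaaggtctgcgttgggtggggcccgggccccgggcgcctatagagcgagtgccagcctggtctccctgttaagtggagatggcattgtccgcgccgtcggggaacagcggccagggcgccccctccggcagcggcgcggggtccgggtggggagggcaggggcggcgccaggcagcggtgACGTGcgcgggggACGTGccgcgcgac
Slc16a12: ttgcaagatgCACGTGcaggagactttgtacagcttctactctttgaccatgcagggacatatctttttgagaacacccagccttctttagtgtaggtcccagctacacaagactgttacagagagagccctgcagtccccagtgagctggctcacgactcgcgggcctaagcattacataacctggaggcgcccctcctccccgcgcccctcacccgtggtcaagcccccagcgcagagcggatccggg
Slc2a1: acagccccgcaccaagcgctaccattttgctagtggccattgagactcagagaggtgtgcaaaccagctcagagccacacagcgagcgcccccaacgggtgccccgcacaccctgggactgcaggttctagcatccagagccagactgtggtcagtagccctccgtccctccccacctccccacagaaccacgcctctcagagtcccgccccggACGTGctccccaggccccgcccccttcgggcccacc

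Counted from the start, the letters begin at -27 and -14 in Slc16a3 and at -36 in Slc2a1. In Slc16a12 they form CACGTG, which reads as ACGTG on both strands and begins at -240. ACGTG occurred on either strand in 16.6% of 32851 promoters of this length and in 20.3% of the 236 promoters listed for 183 members. GCGTG occurred on either strand in 28.2% and 41.9% of these promoters. Of the promoters shown, only that of Slc2a1 holds it. Of the 11 members that passed the test below, 6 had a promoter entry. Of these, 3 held ACGTG and 2 held GCGTG. These counts describe letters only.

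Levels are given as log2 of the processed signal minus the array's 75th percentile, so 0 equals that percentile. Differences compare 1 probe between arrays, and brightness across probes served only to pick a gene's probe and some of the genes named. Values of a group are listed as replicate 1, then replicate 2. Between 54.9% and 58.3% of all probes were well above background on each array. The 75th percentile of the signal lay between 590 and 949. Control RNA spiked into the samples had a median signal of 847 on the array of ACKR4-negative replicate 1 and of 2805 to 3432 elsewhere. Summed levels of a marker list are the log2 of its probes' summed linear levels and are compared only between arrays. In bulk RNA, fewer cells of a type and less RNA per cell cannot be told apart.

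All 10 pan-endothelial markers were well above background on all 4 arrays. Their summed level ran from 8.83 to 9.29 in ACKR4-positive and from 9.35 to 9.46 in ACKR4-negative cells, although 3 of them, Kdr, Emcn and Esam, fell. Markers of other cell types also differed between the groups. Of 10 platelet and megakaryocyte markers, 5 were on all 4 arrays and 3 of these fell, while 5 were kept through ACKR4-negative cells only and had to be dimmer in the other group. The summed level of all 10 was 6.66 and 7.85 in ACKR4-negative against -0.04 and 1.33 in ACKR4-positive cells. Itga2b, Gp5 and Tubb1 were not well above background on either ACKR4-positive array. Of 9 kept mural and smooth muscle markers, 5 were on all 4 arrays and 3 of these fell, while 4 were kept through ACKR4-negative cells only. The summed level of the 9 was 5.91 and 6.67 against 1.58 and 1.76. Summed erythroid marker levels were 8.90 and 4.85 against 4.19 and 6.12, which overlapped. This sum was mostly that of Hba-a1, at 8.5 and 4.6 against 4.0 and 5.9. Of 7 kept erythroid markers, 4 were on all 4 arrays and none of these passed. The other 3, Epor, Tfrc and Gata1, were kept through ACKR4-negative cells only and had to be dimmer in the other group. Summed macrophage marker levels were 4.65 and 4.86 against 5.19 and 5.52, with none of the 7 markers on all 4 arrays passing. Most of this sum was Vcam1, at 4.57 and 4.71 against 5.15 and 5.47. Among the other kept macrophage markers, only Csf1r had a positive log2 difference, of 0.10, and its groups overlapped. Marco, C1qa and C1qc differed by -1.43, -1.79 and -1.54. C1qa and C1qc were kept through ACKR4-negative cells only, although their groups overlapped. The macrophage sum is thus not read as a level of macrophage RNA. Lymphocyte marker sums were 1.40 and 2.20 against 0.23 and 1.99, and fibroblastic reticular marker sums were 0.59 and 1.65 against 1.07 and 1.58. Of 3 lymphocyte markers on all 4 arrays, 1 fell, Lck, with a log2 difference of -2.00. The 5 fibroblastic reticular markers on all 4 arrays differed by -1.74 (Tcf21) to 2.37 (Dcn), and none passed. Cxcl13 was kept through ACKR4-negative cells only and Lum through ACKR4-positive cells only. The platelet and mural sums were thus lower in ACKR4-positive cells, as were the members that fell, and their part in those results was not tested.

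Most carriers kept a similar level in both groups. Among the 202 genes on all 4 arrays, 166 (82.2%) differed by less than 2-fold, compared with 87.3% of the 15696 genes on all 4 arrays. Their median log2 difference, ACKR4-positive minus ACKR4-negative, was 0.13, against 0.04 over all these genes. By limma with Benjamini-Hochberg adjustment over all 17358 genes tested, 4 of the 202 rose (2.0%) and 7 fell (3.5%), compared with 1.46% and 2.16% of genes on all 4 arrays (3.62% in all) and 1.92% and 3.72% of all genes tested (5.63% in all). In all 11 members (5.4%) passed, beside the matched 3.62%. The 5.63% also covers genes kept through 1 group. With so few calls, the share is not read as a result about the carriers. At an unadjusted p under 0.05, limma gave 24 higher and 19 lower members. The share of all genes at this unadjusted threshold was not counted. These counts, and those of the classes below, are thus description only. The members with an adjusted p under 0.05 were Slc16a12, Slc46a1, Slc37a1 and Slc35f2 among rises and Slc16a3, Slc2a3, Slc38a1, Slc12a2, Slc15a3, Slc1a5 and Slc22a4 among falls.

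Both arrays of a replicate come from the same sort, and the fit with the sort as a replicate block called more genes. With the block 20 of the 202 rose (9.9%) and 16 fell (7.9%). Beside these stand 5.74% and 6.08% of genes on all 4 arrays (11.8% in all). Of all genes tested, 6.75% rose and 8.55% fell (15.3% in all). All 11 members called without the block were also called with it, and 25 more passed only with it, 16 higher and 9 lower. Those described below are given with both adjusted p-values. Both ACKR4-positive arrays lay above both ACKR4-negative arrays for 62 members and below them for 42, while 98 overlapped. The background for such separation is 23.0% above and 19.7% below, or 42.8% in all, against 30.7% and 20.8% of the members.

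**Figure D1:**
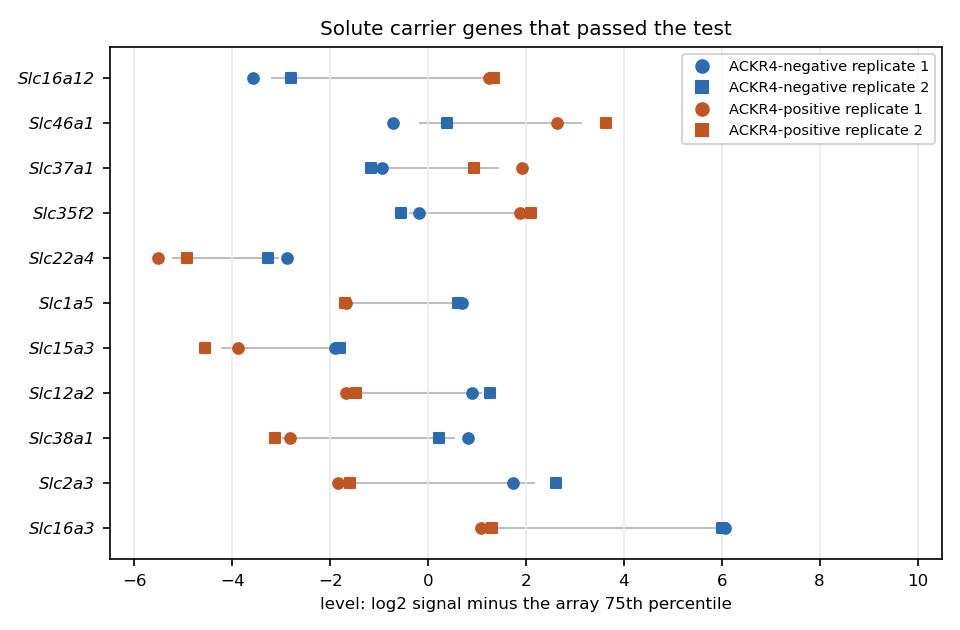
Levels of the 11 solute carrier genes that passed the test without the replicate block, with 1 point per array (log2 signal minus the array's 75th percentile, x axis). Blue marks ACKR4-negative and orange ACKR4-positive cells, circles replicate 1 and squares replicate 2, and each grey line joins the 2 group means. The groups do not overlap for any of the 11 genes, which is no added support because they were called on these same arrays.

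**Figure D2:**
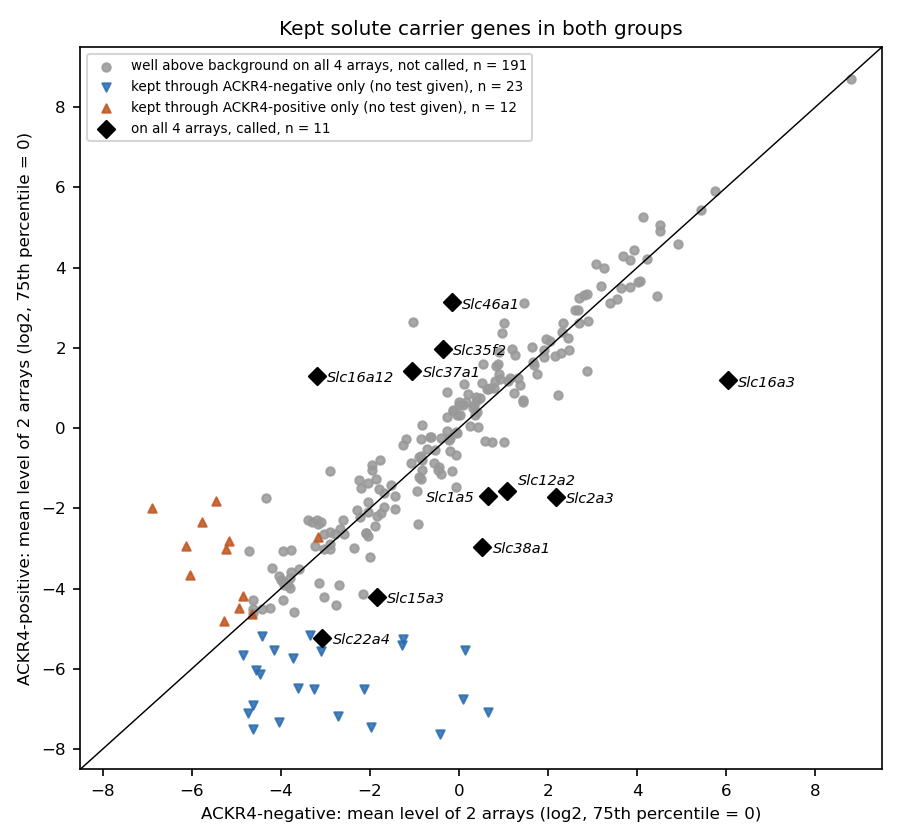
Mean level of each of the 237 kept genes in ACKR4-negative cells (x axis) and ACKR4-positive cells (y axis), each the mean of 2 arrays on the log2 scale with the 75th percentile at 0. Most of the 191 grey points lie near the line of equal levels, the 11 called genes are black diamonds, and the 23 blue and 12 orange triangles are genes kept through 1 group, for which no test result is given.

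Among genes on all 4 arrays, carboxylate carriers held the largest difference in each direction. Slc16a3 encodes MCT4, the monocarboxylate carrier that exports lactate from glycolytic cells. Its levels were 6.08 and 6.00 in ACKR4-negative cells, against 1.08 and 1.30 in ACKR4-positive cells, so each pair was tight and the pairs were far apart. It fell by 4.85 ± 0.27 (SE) on the log2 scale, 28.8-fold (adjusted p = 0.00705), and its second kept probe gave -4.89. Slc16a12 encodes MCT12, which is known for creatine transport. Its levels were -3.58 and -2.80 in ACKR4-negative cells, against 1.24 and 1.35 in ACKR4-positive cells, a rise of 4.49 ± 0.37, or 22.4-fold (adjusted p = 0.0118). Both genes passed in each fit that left out 1 array, with adjusted p of 0.0173 to 0.0259 for Slc16a3 and 0.0257 to 0.0334 for Slc16a12.

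The related lactate and pyruvate carrier gene Slc16a1 (MCT1) was at -2.52 and -3.04 in ACKR4-negative cells, against -2.79 and -2.48 in ACKR4-positive cells. The groups overlapped, and the 95% interval of the log2 difference ran from -0.72 to 1.02. Slc16a9, whose product MCT9 is linked to carnitine and urate transport, was at -2.65 and -1.65 against -4.39 and -3.87. Its difference of -1.98 ± 0.46 passed only with the replicate block (adjusted p = 0.00591 with and 0.108 without). Slc16a13, a further monocarboxylate carrier gene, differed by -0.37 ± 0.26 and did not pass (adjusted p = 0.642). Of 8 carboxylate carriers on all 4 arrays, 1 rose, 1 fell and 6 did not pass, and the class median was -0.11.

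In the sugar and polyol class, 1 of 17 genes rose and 1 fell. Slc2a3 encodes GLUT3, a glucose carrier of high affinity that is prominent in neurons and in platelets. Slc2a3 levels were 1.73 and 2.61 in ACKR4-negative cells, against -1.83 and -1.59 in ACKR4-positive cells. That is a fall of 3.88 ± 0.40, 14.7-fold (adjusted p = 0.0162). The platelet markers moved the same way, and their part in this result was not tested. Without ACKR4-positive replicate 1 its adjusted p was 0.0511.

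Slc2a1 encodes GLUT1, the main glucose carrier of many endothelia. Its levels were 1.96 and 2.50 in ACKR4-negative cells, against 0.88 and 0.79 in ACKR4-positive cells. The groups did not overlap, and the difference of -1.40 ± 0.32 passed only with the replicate block (adjusted p = 0.0232 with and 0.104 without). Slc37a1, which encodes an exchanger of glucose 6-phosphate for phosphate in the endoplasmic reticulum, moved the other way. Its levels were -0.93 and -1.16 in ACKR4-negative cells, against 1.92 and 0.95 in ACKR4-positive cells, a rise of 2.48 ± 0.42 (5.59-fold, adjusted p = 0.0495). This call stands at the threshold: it was lost without ACKR4-negative replicate 1, ACKR4-negative replicate 2 or ACKR4-positive replicate 1, with adjusted p of 0.147, 0.174 and 0.0993. Slc2a8, for the mostly intracellular carrier GLUT8, and Slc50a1, for the sugar carrier SWEET1, overlapped between groups, with differences of -0.01 ± 0.38 and -0.41 ± 0.38. The class median was -0.01 and changed sign with median centring.

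Amino acid and peptide carriers ran from -3.49 to 3.68, and 14 of 25 (56.0%) were within 2-fold, beside 82.2% of all members on 4 arrays. No member rose and 3 fell (12.0%) without the block, beside 1.46% and 2.16% of genes on all 4 arrays. With the block 6 rose (24%) and 4 fell (16%), beside 5.74% and 6.08%. At an unadjusted p under 0.05, 6 were higher and 4 lower. Of the 3 falls, 2 were in sodium-dependent carriers of glutamine and small neutral amino acids. Slc38a1 encodes SNAT1, a concentrative glutamine carrier. Its levels were 0.82 and 0.23 in ACKR4-negative cells, against -2.82 and -3.12 in ACKR4-positive cells, a fall of 3.49 ± 0.34 (11.3-fold, adjusted p = 0.0147). Its 3 kept probes gave differences of -3.0 to -3.67, and without ACKR4-negative replicate 1 the adjusted p was 0.0541. Slc1a5 encodes ASCT2, a sodium-dependent exchanger that brings in glutamine. It stood at 0.69 and 0.61 against -1.68 and -1.70, a fall of 2.34 ± 0.26 (5.06-fold, adjusted p = 0.0186). Leaving out any 1 array gave adjusted p of 0.0532 to 0.113 for Slc1a5, with the difference between -2.38 and -2.30.

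Slc15a3 encodes PHT2, a histidine and peptide carrier of endolysosomes in immune cells. It was at -1.90 and -1.81 in ACKR4-negative cells, against -3.87 and -4.55 in ACKR4-positive cells, a fall of 2.36 ± 0.35 (5.14-fold, adjusted p = 0.0354). Without 1 array at a time its adjusted p ran from 0.0511 to 0.144. Slc1a1, the gene of the glutamate carrier EAAC1, was at -1.18 and -0.68 against -2.56 and -2.24. Its difference of -1.47 ± 0.32 passed only with the block (adjusted p = 0.0115 with and 0.096 without).

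The 6 members that were called higher with the block were exchangers and uniporters of cationic, large neutral and aromatic amino acids, along with Slc7a4, a relative of the cationic carriers without a settled substrate. Other amino acid exchangers and uniporters were lower in ACKR4-positive cells. The exchanger gene Slc1a5 fell by 2.34, and Slc7a5, given below, differed by -0.91 without passing. The uniporter gene Slc43a1, kept through ACKR4-negative cells only, was at -0.87 and -1.69 against -6.32 and -4.49. Slc7a8 encodes LAT2, a light chain of heteromeric exchangers for neutral amino acids. Its levels were -1.99 and -0.07 in ACKR4-negative cells, against 2.48 and 2.82 in ACKR4-positive cells. The difference of 3.68 ± 0.70 was 12.8-fold, with an adjusted p of 0.00472 with the block and 0.0654 without. Its ACKR4-negative arrays lay further apart than its ACKR4-positive arrays. Slc16a10 encodes TAT1, a uniporter of aromatic amino acids, and was at -3.72 and -4.97 against -1.83 and -1.67 (2.59 ± 0.49, adjusted p = 0.0115 with the block and 0.0654 without). Slc43a2 encodes LAT4, a uniporter of branched-chain amino acids, and was at -3.0 and -2.77 against -1.58 and -0.55 (1.82 ± 0.44, adjusted p = 0.013 and 0.118).

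Slc7a7 encodes y+LAT1, an exchanger that releases cationic amino acids. Its levels were 2.87 and 3.30 in ACKR4-negative cells, against 3.79 and 4.41 in ACKR4-positive cells (1.01 ± 0.36, adjusted p = 0.0365 with the block and 0.277 without). Slc7a1 encodes CAT1, the main arginine carrier of endothelium, and was at 0.75 and 0.31 against 1.53 and 1.66 (1.06 ± 0.30, adjusted p = 0.0486 and 0.174). Slc7a4 was at -5.05 and -4.38 against -3.40 and -2.71 (1.66 ± 0.41, adjusted p = 0.00728 and 0.127). All 6 genes were higher in both sorts, and for none of them did the groups overlap. Since they were picked by the block fit on these same arrays, this is no added support.

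The heavy chain shared by LAT1, LAT2 and y+LAT1 is encoded by Slc3a2. Its levels were 5.43 and 5.46 in ACKR4-negative cells, against 5.34 and 5.52 in ACKR4-positive cells, an interval of the difference from -0.72 to 0.69. The light chain gene Slc7a5 (LAT1) was at 0.89 and 0.29 against -0.60 and -0.05. Its difference of -0.91 ± 0.38 did not pass (adjusted p = 0.354), but its second kept probe gave -2.31, and the mean of both probes passed at -1.61 (adjusted p = 0.0454). Slc38a2, the gene of the glutamine carrier SNAT2, was at 3.03 and 2.36 against 3.79 and 2.71. The groups overlapped, with a difference of 0.55 ± 0.50.

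**Figure D3:**
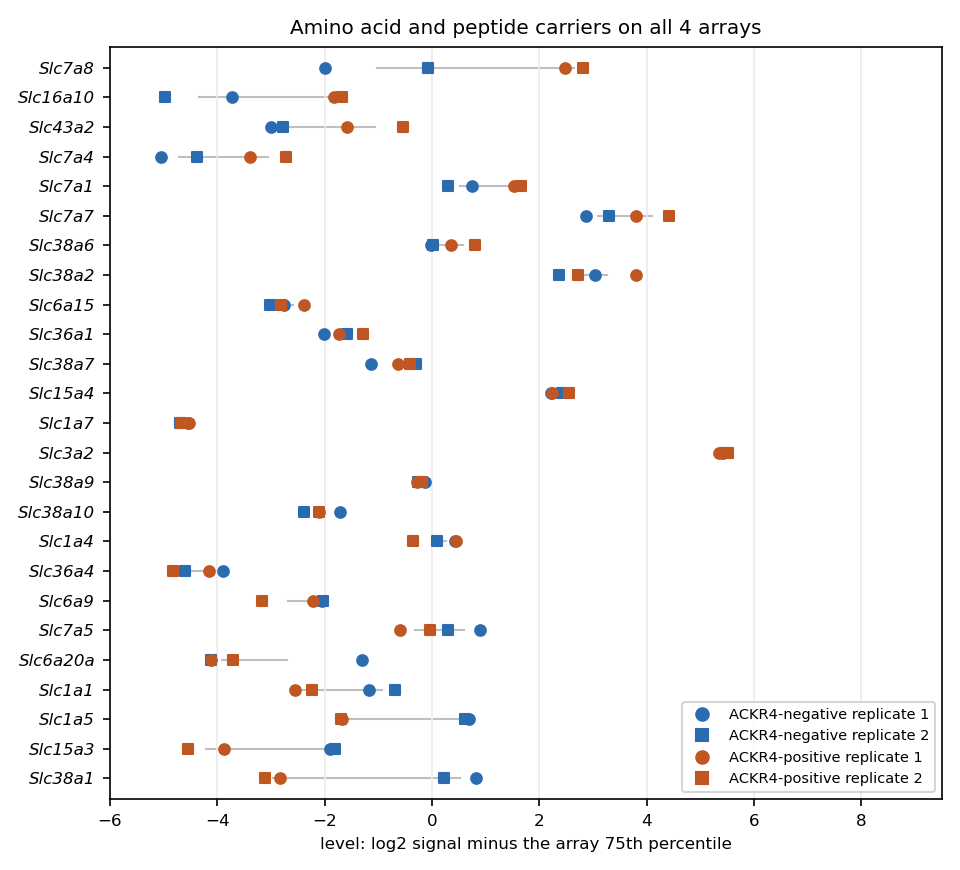
Levels of the 25 amino acid and peptide carriers on all 4 arrays, sorted by difference, with 1 point per array (log2 signal minus the array's 75th percentile, x axis). Blue marks ACKR4-negative and orange ACKR4-positive cells, circles replicate 1 and squares replicate 2, and grey lines join group means. Slc38a1, Slc15a3 and Slc1a5 at the bottom fell without the block, and the 6 genes at the top, from Slc7a8 to Slc7a7, passed only with it.

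Inorganic anion carriers, a class that here includes the cation-chloride cotransporters, held 1 fall among 16 genes. Slc12a2 encodes NKCC1, which brings sodium, potassium and chloride into the cell and sets its volume and chloride content. Its levels were 0.90 and 1.26 in ACKR4-negative cells, against -1.68 and -1.47 in ACKR4-positive cells, a fall of 2.66 ± 0.29 (6.31-fold, adjusted p = 0.0185). The call was lost without ACKR4-negative replicate 1, ACKR4-negative replicate 2 or ACKR4-positive replicate 1, with adjusted p over the 4 such fits of 0.0419 to 0.0918. The chloride-exporting potassium-chloride cotransporter genes Slc12a4 (KCC1) and Slc12a7 (KCC4) differed by -0.22 ± 0.27 and -0.39 ± 0.31 and did not pass.

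Slc20a1, which encodes the sodium-phosphate cotransporter PiT1, was at 2.86 and 2.88 in ACKR4-negative cells, against 1.66 and 1.18 in ACKR4-positive cells. Its difference of -1.45 ± 0.30 passed only with the block (adjusted p = 0.0168 with and 0.0841 without), as did that of Slc12a8, at -1.37 ± 0.32 (adjusted p = 0.0148 and 0.111). The class median was -0.15, with 7 genes lower in both ACKR4-positive arrays (43.8%) and 5 higher (31.2%). Among all genes on all 4 arrays, 19.7% were lower and 23.0% higher in this way.

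Among 6 vitamin and cofactor carriers on all 4 arrays, 1 rose and none fell, and the class median was -0.39. Slc46a1 encodes the proton-coupled folate transporter, which takes up folate at low pH. Its levels were -0.71 and 0.38 in ACKR4-negative cells, against 2.63 and 3.63 in ACKR4-positive cells, a rise of 3.30 ± 0.56 (9.85-fold, adjusted p = 0.0483 without and 0.001 with the block). Both kept probes gave 3.30, and replicate 2 was higher than replicate 1 in both groups. Without 1 array at a time its adjusted p ran from 0.0544 to 0.132. Slc19a1, the gene of the reduced folate carrier, differed by -0.41 and did not pass (adjusted p = 0.648).

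Slc5a6, for the sodium-dependent carrier of biotin and pantothenate, was at 0.04 and 0.18 against 1.00 and 1.19 (0.98 ± 0.27, adjusted p = 0.0386 with the block and 0.163 without). Slc23a2, for the vitamin C carrier SVCT2, was at 0.79 and 0.69 against 0.01 and -0.71 (-1.09 ± 0.35, adjusted p = 0.0477 and 0.235). Among thiamine carriers, Slc19a2 differed by -0.37 without passing, whereas Slc19a3 was kept through ACKR4-positive cells only. Its levels were -6.43 and -7.38 in ACKR4-negative cells, not well above background, and -1.77 and -2.23 in ACKR4-positive cells, at least 11.9-fold higher. The riboflavin carrier gene Slc52a3 was the reverse, at -2.13 and -1.82 in ACKR4-negative cells and not well above background in ACKR4-positive cells, where it was at least 13.0-fold lower. Slc52a2, the other riboflavin carrier kept, differed by -0.61 (adjusted p = 0.402).

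Nucleoside and nucleobase carriers had a class median of 0.74, and no member of 7 passed limma without the block (3 at an unadjusted p under 0.05). Slc29a1 encodes ENT1, which moves adenosine and other nucleosides across the plasma membrane of endothelium and red cells. Its levels were 3.73 and 4.55 in ACKR4-negative cells, against 5.00 and 5.53 in ACKR4-positive cells. The difference of 1.13 ± 0.42 passed only with the block (adjusted p = 0.0289 with and 0.296 without). Slc29a3, for the lysosomal carrier ENT3, was at -1.76 and -2.17 against -0.79 and -1.28 (0.93 ± 0.33, adjusted p = 0.0457 and 0.284). The 2 further equilibrative genes, Slc29a2 and Slc29a4, were 0.88 and 0.74 higher and passed in neither fit, and the probe of Slc29a4 is among those shared with other genes. Slc43a3, a purine nucleobase carrier gene, overlapped between groups, at 4.47 and 2.64 against 3.79 and 2.62. The class median was 0.42 with normexp background correction.

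Organic cation and anion carriers of the Slc22 family had a class median of 0.77. Both ACKR4-positive arrays lay on 1 side of both ACKR4-negative arrays for each of 8 genes, 6 above and 2 below. Such separation is common, at 23.0% above and 19.7% below among all genes on all 4 arrays. Only 1 of the 8 genes passed without the block. Slc22a4 encodes OCTN1, the carrier of the antioxidant ergothioneine, and fell by 2.15 ± 0.35 (4.44-fold, adjusted p = 0.0443) from -2.88 and -3.26 to -5.51 and -4.93. Its ACKR4-positive levels were close to background, its difference was -0.94 with normexp (adjusted p = 0.253), and without 1 array at a time the adjusted p was 0.057 to 0.211. The carnitine carrier gene Slc22a5 (OCTN2) was at 0.83 and 0.97 against 2.08 and 1.71 (0.99 ± 0.29) and passed in neither fit (adjusted p = 0.187 without and 0.0544 with the block). Slc22a17, which encodes a receptor for lipocalin-2, was at 0.81 and 1.22 against 2.65 and 2.59. Its difference of 1.61 ± 0.29 passed with the block (adjusted p = 0.0117) and not without it (0.0601). Slc22a28 also passed only with the block (0.97 ± 0.27, adjusted p = 0.0411 and 0.159), but its probe is shared with a gene of another name.

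Of the metal and heme carriers on all 4 arrays, 23 of 24 (95.8%) were within 2-fold and limma called none without the block (3 at an unadjusted p under 0.05). The exception was Slc30a2, which encodes ZnT2, a carrier of zinc into vesicles. It was at 1.48 and 1.42 in ACKR4-negative cells, against 3.50 and 2.73 in ACKR4-positive cells (1.66 ± 0.37, adjusted p = 0.0149 with the block and 0.0945 without). The zinc exporter gene Slc30a1 (ZnT1) differed by 0.59 ± 0.31. The importer genes Slc39a1, Slc39a7 and Slc39a8 differed by 0.40 ± 0.55, 0.35 ± 0.30 and -0.73 ± 0.40, and none of the 4 passed. In this class 2 genes were kept through 1 group. Slc39a4 (ZIP4, a zinc importer) was at -1.0 and -1.50 in ACKR4-negative cells and at -6.65 and -3.86 in ACKR4-positive cells, with 1 of the latter well above background. The magnesium carrier gene Slc41a2 was at least 9.44-fold higher in ACKR4-positive cells, as given below.

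Mitochondrial carriers were the largest class, with 35 genes on all 4 arrays, none called by limma without the block (3 at an unadjusted p under 0.05) and a median of 0.16. Slc25a24, for a calcium-regulated carrier of ATP-magnesium and phosphate, was at 0.66 and 1.27 against 2.24 and 2.51 (1.41 ± 0.34, adjusted p = 0.0151 with the block and 0.121 without). Slc25a5, for the adenine nucleotide carrier ANT2, was at 4.35 and 4.56 against 3.04 and 3.53 (-1.17 ± 0.31, adjusted p = 0.0258 and 0.154). Slc25a10, for the dicarboxylate carrier, differed by -1.20 ± 0.36 (adjusted p = 0.0238 and 0.195). The second adenine nucleotide carrier gene, Slc25a4 (ANT1), overlapped between the groups at 5.66 and 5.83 against 5.6 and 6.21. The mitochondrial iron importer gene Slc25a37 differed by 0.46 ± 0.30 and did not pass.

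The nucleotide sugar class, which covers the whole Slc35 family, held 1 rise among 23 genes and none that fell. Slc35f2, known for taking up a survivin-suppressing drug, is in this class by its family number only. It was at -0.18 and -0.55 in ACKR4-negative cells, against 1.87 and 2.10 in ACKR4-positive cells, a rise of 2.35 ± 0.30 (5.08-fold, adjusted p = 0.0245). Without 1 array at a time the adjusted p was 0.069 to 0.131 and the difference 2.16 to 2.53. Slc35a5 passed only with the block (1.11 ± 0.27, adjusted p = 0.0279 and 0.126). The Golgi sulfate donor carrier gene Slc35b2 and the endoplasmic reticulum carrier gene Slc35b1 differed by 0.27 ± 0.39 and -0.32 ± 0.28.

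Among carriers of monovalent cations, calcium and protons, none of 8 passed limma without the block (2 at an unadjusted p under 0.05). The sodium-proton exchanger gene Slc9a8 (NHE8) was 0.91 ± 0.27 higher (adjusted p = 0.0481 with the block and 0.186 without) and the sodium-calcium exchanger gene Slc8a2 (NCX2) differed by -1.64 ± 0.42 (adjusted p = 0.0444 and 0.139). Slc9a3r2, for the scaffold NHERF2, overlapped at 4.32 and 4.13 against 4.14 and 4.29, a difference of -0.01 whose sign changed with quantile normalization and median centring.

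Lipid, sterol and choline carriers were all within 2-fold on all 4 arrays (9 of 9), among them the choline carrier gene Slc44a2 at 0.50 ± 0.27. The 9 amine, osmolyte and transmitter carriers on all 4 arrays had a median of 0.02. Among genes on all 4 arrays in both these classes, limma called 0 in either fit and 0 at an unadjusted p under 0.05. The amine and lipid genes kept through 1 group, such as Slc6a4, Slc14a1 and Slc27a2, are described below. In that class the taurine carrier gene Slc6a6 was at 4.52 and 3.16 in ACKR4-negative cells, against 4.11 and 2.92 in ACKR4-positive cells, with replicate 1 higher in both groups. Medians of the amine and amino acid classes changed sign with normexp background correction, and those of the amine and lipid classes with the mean of a gene's probes.

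**Figure D4:**
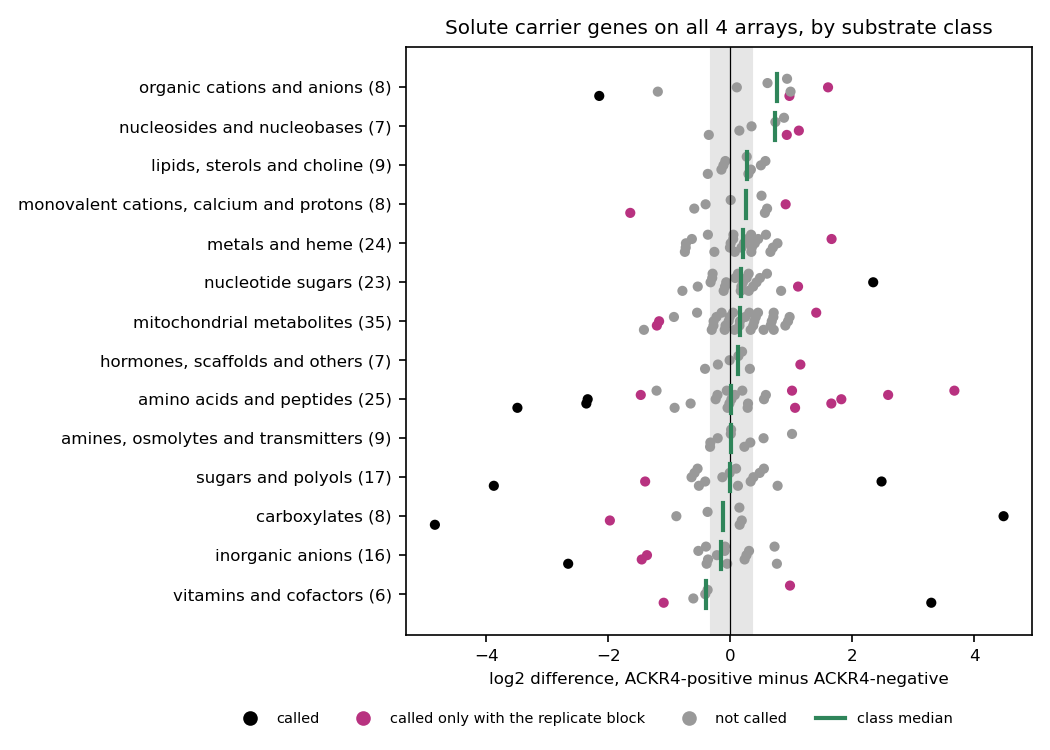
Log2 difference, ACKR4-positive minus ACKR4-negative (x axis), of the 202 genes on all 4 arrays in 14 substrate classes, with the number of genes in brackets. Black points were called, purple points were called only with the replicate block and grey points were not called. Green bars are class medians, from -0.39 for vitamins to 0.77 for organic cations and anions, and the grey band spans the interquartile range of all 15696 genes on all 4 arrays, -0.31 to 0.35.

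The 35 genes kept through 1 group had to differ in signal or lie near background, so they are described with no test result, although their p-values were part of the adjustment over all 17358 genes. Where a gene was not well above background on either array of the dimmer group, the fold is a lower bound. For it, a dim level below the dimmest probe that the array still measured above background was set to that probe's level. Such a bound exists for 16 of the 23 genes kept through ACKR4-negative cells and for 3 of the 12 kept through ACKR4-positive cells.

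The widest gaps on the ACKR4-negative side were in carriers of anions and transmitters. Slc26a10, a member of the anion exchanger family Slc26, was at 0.82 and 0.47 in ACKR4-negative cells, against -7.42 and -6.76 in ACKR4-positive cells, at least 79.7-fold lower. Slc6a4, which encodes the serotonin carrier SERT and is abundant in platelets, was at -0.29 and 0.47 against -7.86 and -5.67, at least 54.4-fold lower. The platelet marker sum fell beside it, and the part of platelet RNA in this result was not tested. Slc5a5, for the sodium-iodide symporter of the thyroid, was at -0.29 and -0.56 against -7.95 and -7.30, at least 38.0-fold lower.

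Slc14a1, for the urea carrier UT-B of red cells and of the endothelium of the kidney's descending vasa recta, was at -2.48 and -1.78 against -6.80 and -6.21, at least 11.6-fold lower. Slc27a2, for a very-long-chain fatty acid carrier and ligase, was at -2.59 and -2.83 against -7.30 and -7.08, at least 7.78-fold lower. Slc12a5, for the potassium-chloride cotransporter KCC2 of neurons, was at 0.30 and -0.01 against -5.56 and -5.49. It was well above background on 1 ACKR4-positive array, as was Slc43a1 (LAT3, an amino acid uniporter), at -0.87 and -1.69 against -6.32 and -4.49.

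On the ACKR4-positive side, Slc41a2, for a magnesium carrier, was at -5.88 and -5.67 in ACKR4-negative cells, against -2.13 and -2.54 in ACKR4-positive cells, at least 9.44-fold higher. Slc13a2, for a citrate and dicarboxylate carrier, was at least 3.75-fold higher. No other bound exists on this side except that of Slc19a3, because the other genes kept through ACKR4-positive cells were well above background on 1 ACKR4-negative array. Slc25a34, a mitochondrial carrier gene, was at -5.94 and -4.96 against -2.07 and -1.56. Slc4a4, for the sodium-bicarbonate cotransporter NBCe1, was at -5.10 and -7.15 against -2.26 and -3.60. Slc45a4 was at -5.42 and -4.92 against -2.40 and -3.21, and Slc2a6, for the lysosomal carrier GLUT6, at -6.79 and -3.68 against -3.68 and -2.33. Slc16a5 overlapped between the groups (-5.59 and -4.09 against -5.48 and -2.89). In Slc16a7, for the monocarboxylate carrier MCT2, the replicates were further apart than the groups, with -5.19 and -1.17 against -4.67 and -0.77, so both arrays of the second sort were high.

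**Figure D5:**
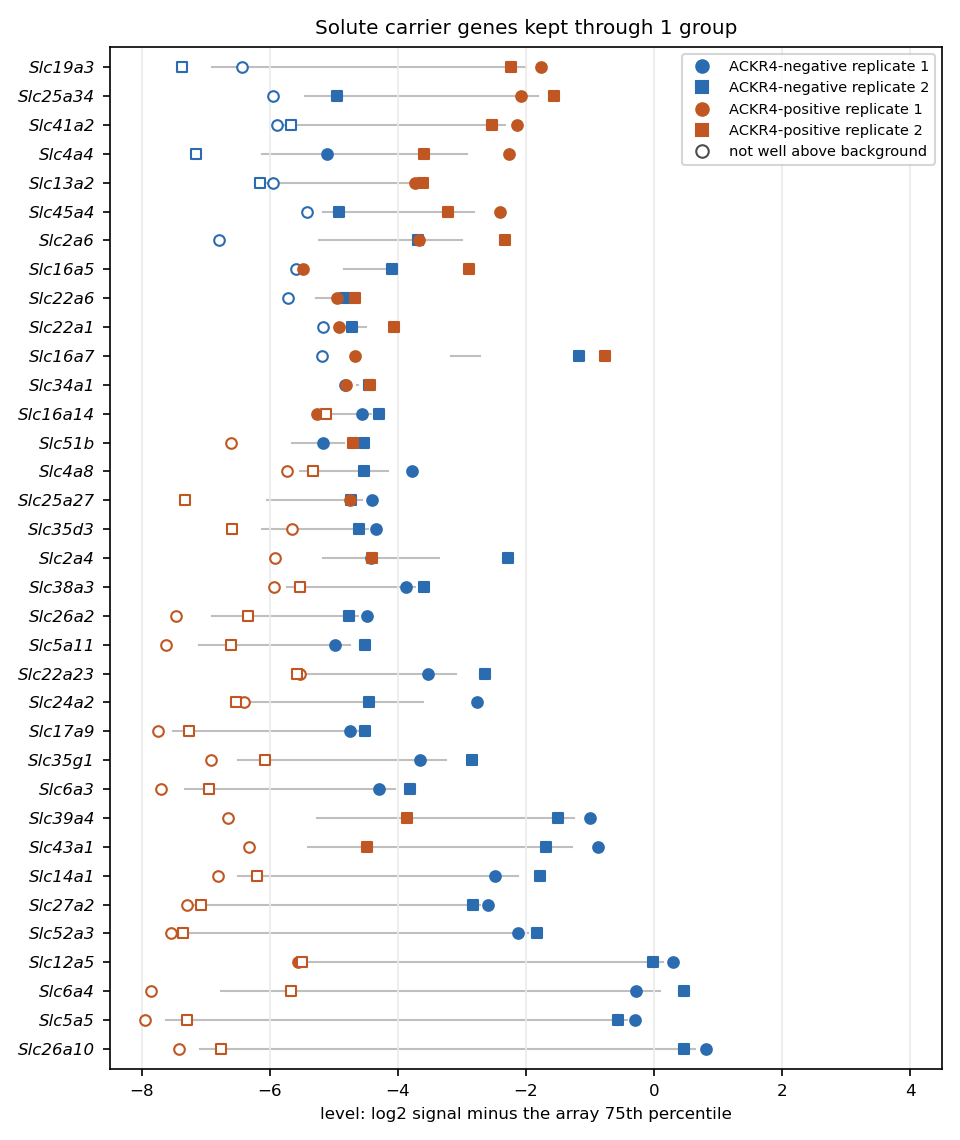
Levels of the 35 genes kept through 1 group, with 1 point per array (log2 signal minus the array's 75th percentile, x axis). Blue marks ACKR4-negative and orange ACKR4-positive cells, circles replicate 1 and squares replicate 2, and open points were not well above background. The 23 genes from the bottom were kept through ACKR4-negative and the 12 at the top through ACKR4-positive cells. Slc26a10 and Slc19a3 lie at the 2 ends.

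Few genes lay at the detection limit. For each probe, spots well above background were counted on the array with fewer of them within a group, and the better group was taken. The best probe of 231 genes had all 4 spots by this count, and that of 6 genes just passed with 3 spots, namely Slc16a5, Slc17a9, Slc22a6, Slc26a2, Slc51b and Slc5a11. Just outside, with 2 spots, were Slc14a2, Slc26a1, Slc4a11 and Slc8a1, whose levels ran from -5.69 to -4.83. The best probes of the remaining 127 genes had 0 or 1 spots by this count, and some of them had more on a single array.

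Some probes do not belong to 1 gene. Of the 237 genes, 10 were read by a probe that shares 20 bases with a probe of another name or lists accessions of several genes, all of them on all 4 arrays and none among the 11 called. Stretches of 3 such probes are shown because they decide how far high levels can be read. Capitals mark bases within a stretch of 20 that a probe of another name also holds, and coordinates are the probes' own on mm9. Sharing was sought on both strands, so a probe that holds only the reverse complement of a stretch also counts. The probe of Slc10a1 (bases 1 to 30 of 60) lies at chr12:82056539-82056598, that of Slc8a3 (bases 29 to 58) at chr12:82299156-82299215 and that of Slc17a5 (bases 6 to 35) at chr9:78385399-78385458, all on the minus strand.
Slc10a1: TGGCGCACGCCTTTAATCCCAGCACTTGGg
Slc8a3: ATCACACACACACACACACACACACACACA
Slc17a5: atgGACACACACACACACACACACACTGAT

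The last 2 stretches hold runs of alternating CA. On either strand, the Slc17a5 probe shares 20 bases with probes of 75 other names and the Slc8a3 probe with those of 76. The Slc10a1 probe was at 8.49 and 9.12 against 8.19 and 9.20, while a second probe of this bile acid carrier gene was not kept. All 3 genes were higher in replicate 2 than in replicate 1 in both groups, and none passed. Apart from shared probes, 49 members had several kept probes. Their differences lay over 1.5 apart for 3 genes, Slc18a2 (1.01 and -3.60), Slc26a10 (-7.73 and -4.72) and Slc4a7 (-0.40 and -3.47).

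Other transport genes, a list of ABC transporters, ion pumps, Slco carriers, aquaporins and metabolic partners of carriers, were set beside the solute carriers. Of 80 on all 4 arrays, 2 rose and 7 fell, and 6 rose and 12 fell with the block. The background is 1.46% and 2.16% without the block and 5.74% and 6.08% with it. The water channel gene Aqp1 fell by 7.28 ± 0.35 (adjusted p = 0.00679), from 5.09 and 4.65 to -2.68 and -2.15. The nucleotide exporter gene Abcc4, abundant in platelets, fell by 5.43 ± 0.42, and Abcc9, which is also in the mural marker list, by 4.70 ± 0.43. Atp2a3, for a calcium pump of platelets and other blood cells, fell by 4.47 ± 0.50. The sodium pump subunit gene Atp1b3, the metallothionein gene Mt1 and the fatty acid receptor gene Cd36 fell by 2.06 ± 0.27, 2.55 ± 0.28 and 2.03 ± 0.31.

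The 2 rises were in Slco3a1, for an organic anion carrier (2.58 ± 0.30, adjusted p = 0.0203), and Ada, for adenosine deaminase (2.54 ± 0.28, adjusted p = 0.0185). Adk, for adenosine kinase, was 0.92 ± 0.35 higher and passed only with the block (adjusted p = 0.0482 with and 0.318 without). Bsg, whose product basigin carries MCT1 and MCT4 to the cell surface, was at 2.92 and 3.00 against 2.58 and 3.41, with a difference of 0.04 ± 0.38. Beside the fall of Slc16a3, the lactate dehydrogenase gene Ldha differed by -0.88 ± 0.31 and did not pass (adjusted p = 0.265), and Ldhb differed by -1.69 ± 0.32 (adjusted p = 0.0167 with the block and 0.0665 without). The glutamine synthetase gene Glul differed by -1.77 ± 0.42 (adjusted p = 0.00578 with the block and 0.115 without).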

How the data were processed

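The 4 arrays were 1-colour Agilent arrays on 1 slide, read in 1 scan. Per the labels' protocols, 6 to 20 ng of RNA was amplified and labelled. Per the file headers, the authors processed the scans with Agilent Feature Extraction 10.7.3.1. The deposited signal used here is its processed intensity, from which background was subtracted, with no scaling between arrays. Deposited flags mark, per the file headers, spots well above background and outlier spots. The deposited table of processed intensity values, with the 75th percentile of each array at 1498 to 1506 and a floor of 15, was used as an alternative only.

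Outlier spots (1.91% to 1.96% per array) were left out. Log2 signals of a probe's 4 spots were averaged, each array's 75th percentile was subtracted, and the brightest kept probe stood for a gene. Groups were compared with limma 3.58.1 in R 4.3.3 by lmFit and eBayes. Tests were 2-sided, and p-values were adjusted by Benjamini and Hochberg's method over 17358 genes, with a threshold of 0.05. Intervals are 95% intervals of the fit, SE is its standard error and n is 2 arrays per group. The script was tested on simulated data. Figures used Python 3.11.15 and matplotlib 3.10.9.

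The sort is the replicate number, since same-numbered arrays carry 1 mouse number in their titles and the series describes 2 independent sorts. Differences between replicates correlated between the groups at r = 0.605 over all genes tested, with 1 such pair of differences. The limma fit with this replicate block is given where it changes a call.

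The members, substrate classes, marker and transport lists were chosen with earlier results of these data known. Classes follow family numbers and textbook substrates. Genes named are called members, the 2 brightest per class with 5 or more members, the 8 largest differences per direction among genes kept through 1 group, and carriers known from endothelium. Members called only with the replicate block, genes near the detection limit or with discordant or shared probes, Slc19a1, Slc19a2, Slc29a2, Slc52a2, Slc16a7 and Slc39a4 were named after their values were seen. Some genes that these rules take are not reported here. Gene names are those of the files, and promoters are from RefSeq. The 14 alternative settings covered background correction, normalization, filters, the deposited table, probes, outlier spots, the prior, the block and leaving out each array. One more, leaving out members with shared probes, was added after seeing the data.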

Additional observations from a re-analysis of the deposited data

How the results depend on the processing

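All 11 called members kept their direction in each of the 14 alternative settings. With the stricter filter, 2 members rose, and 165 genes rose and 276 fell among all genes. With the replicate block, 20 members rose and 16 fell, and 1171 and 1484 of all genes. Other settings that leave every array in lost Slc15a3 (normexp, adjusted p = 0.0506), Slc37a1 (quantile, median centring, no filter and stricter filter, 0.053 to 0.0613), Slc46a1 (stricter filter, 0.0601) and Slc22a4 (5 settings, 0.0546 to 0.253). Leaving out 1 array at a time gave 1 to 4 members that rose and 2 to 4 that fell, and 75 to 295 and 312 to 597 of all genes, with the lone array of a group assumed to vary like the others. Slc16a3 and Slc16a12 passed in all 4 of these fits, while 5 members were lost in each. Among calls over all genes tested, not the members alone, the share of rises was 34% and became 44.1% with the block. Leaving out the 10 members with shared probes changed no count of calls. The median over all genes moved between -0.06 and 0.11.

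Class medians moved for lipids (-0.08 with the mean of probes), mitochondrial carriers (0.28 with quantile normalization) and nucleosides (0.42 with normexp). Without 1 array they ranged from -0.046 to 0.164 for hormones and scaffolds, -0.353 to -0.025 for inorganic anions, 0.15 to 0.40 for lipids, 0.13 to 0.29 for mitochondrial carriers, 0.019 to 0.342 for monovalent cations and -0.19 to 0.17 for sugars. The cause was not tested.

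Genes near 0 that passed no test changed sign: Slc10a1 (0.071, quantile), Slc17a5 (-0.11, mean of probes), Slc2a8 (0.06, median centring, and 0.002, deposited table), Slc3a2 (0.16, quantile, and 0.056, median centring) and Slc9a3r2 (0.007 normexp, 0.069 quantile, 0.059 median centring, 0.086 outlier spots kept). Without 1 array, differences spanned -0.62 to 0.40 for Slc10a1, -0.11 to 0.41 for Slc16a1, -0.49 to 1.58 for Slc17a5, -0.15 to 0.47 for Slc25a4, -0.34 to 0.32 for Slc2a8, -0.045 to 0.582 for Slc35b2, -0.12 to 0.93 for Slc39a1, -0.104 to 0.077 for Slc3a2, -1.27 to 0.56 for Slc43a3, -0.046 to 0.315 for Slc46a3, -1.01 to 0.35 for Slc6a6, -0.50 to 1.71 for Slc8a3 and -0.101 to 0.081 for Slc9a3r2. The number of arrays limits the precision, and levels near -5 lie close to background.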
